A study of Mus musculus with 12 samples.

Results

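Lcn2, S100a8, S100a9 and Ltf encode lipocalin 2, the 2 subunits of calprotectin and lactoferrin, secreted proteins that keep metals from microbes. These 4 of the 35869 gene symbols in the count table were chosen by name, as antimicrobial genes with few counts in unstimulated cultures, so their unstimulated counts and their comparisons with unstimulated cultures are given as descriptions with no test. The study sequenced polyadenylated RNA from colonoids, cultures of epithelium grown in Matrigel from isolated colonic crypts of C57BL/6 mice, in order to follow IL-1 receptor signalling in the epithelium. Every culture had EGF and conditioned medium of L-WRN cells, a line that secretes Wnt3a, R-spondin 3 and noggin. The 4 groups of 3 libraries each were unstimulated, recombinant mouse IL-22 at 1 ng/mL, recombinant mouse IL-1b at 100 ng/mL, and IL-1b with IL-22 at those doses, for 12 h. Cytokines were the sole labelled difference between groups. The labels do not say that replicates came from separate mice or cultures, and the p-values below therefore describe the spread among the sequenced libraries, which may be technical. In bulk RNA, a change in the number of cells that express a gene and a change in the RNA of each cell cannot be told apart.

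Lipocalin 2 binds bacterial siderophores such as enterobactin, the small molecules with which bacteria scavenge iron. S100A8 and S100A9 join as calprotectin, which binds zinc and manganese and is measured in stool as a marker of intestinal inflammation. Lactoferrin belongs to the transferrin family and binds ferric iron. Neutrophils store all of these proteins, and inflamed epithelium can make them too. IL-1b signals by way of its receptor to NF-kB, whose co-regulator IkB-zeta (Nfkbiz) is known to be needed for Lcn2 induction in mouse cells, and IL-22 acts on epithelium through STAT3.

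All 4 genes lie on chromosomes of mm10 (GRCm38) as protein-coding loci in the GENCODE M21 annotation, and no other annotated gene shares their exon bases. Lcn2 spans chromosome 2, 32384633 to 32388252, on the minus strand. S100a8 (chromosome 3, 90668978 to 90670035, plus strand) and S100a9 (chromosome 3, 90692632 to 90695721, minus strand) are neighbours, with 22596 bases between them. Ltf spans chromosome 9, 111019271 to 111042767, on the plus strand. Their start regions are printed here because the genes differed in which cytokine raised them, each with 250 bases before and 50 bases after the RefSeq start (GRCm38.p6), read 5' to 3' on the strand of the gene. Capitals mark matches, on either strand, to GGG and CC with any 5 bases between them (an NF-kB type motif), TTCNNNGAA (STAT), TTGCNNAA (C/EBP) or TATAAA. The windows are chr2:32387690-32387989 for Lcn2, chr3:90668821-90669120 for S100a8, chr3:90695672-90695971 for S100a9 and chr9:111019042-111019341 for Ltf.
Lcn2: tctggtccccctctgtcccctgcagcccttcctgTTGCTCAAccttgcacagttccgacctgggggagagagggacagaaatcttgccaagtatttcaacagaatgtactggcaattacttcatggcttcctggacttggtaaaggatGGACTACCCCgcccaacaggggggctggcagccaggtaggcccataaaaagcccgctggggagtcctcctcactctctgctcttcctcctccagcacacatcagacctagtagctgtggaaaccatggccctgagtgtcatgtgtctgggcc
S100a8: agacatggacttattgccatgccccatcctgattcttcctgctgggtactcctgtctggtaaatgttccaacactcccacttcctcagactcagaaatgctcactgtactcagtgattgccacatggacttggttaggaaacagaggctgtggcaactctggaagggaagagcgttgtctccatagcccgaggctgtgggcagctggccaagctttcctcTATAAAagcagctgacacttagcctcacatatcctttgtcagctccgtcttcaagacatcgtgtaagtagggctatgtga
S100a9: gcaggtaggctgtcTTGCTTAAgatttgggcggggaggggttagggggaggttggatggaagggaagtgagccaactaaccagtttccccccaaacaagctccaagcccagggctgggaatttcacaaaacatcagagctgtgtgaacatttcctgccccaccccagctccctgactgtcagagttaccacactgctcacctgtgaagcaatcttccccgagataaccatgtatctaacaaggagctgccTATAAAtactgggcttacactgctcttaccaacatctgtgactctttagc
Ltf: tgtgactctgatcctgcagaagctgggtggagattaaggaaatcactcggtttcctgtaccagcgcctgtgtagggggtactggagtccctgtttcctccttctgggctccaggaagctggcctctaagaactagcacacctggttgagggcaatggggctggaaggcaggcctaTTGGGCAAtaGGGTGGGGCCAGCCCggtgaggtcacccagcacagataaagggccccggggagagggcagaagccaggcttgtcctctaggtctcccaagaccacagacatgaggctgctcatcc
The Lcn2 window held an NF-kB type match at -102 to -93 and a C/EBP match at -216 to -209 from the start. S100a9 had a C/EBP match at -236 to -229 and a TATAAA at 1 to 6, and S100a8 had a TATAAA at -30 to -25. In Ltf, 3 overlapping NF-kB type matches lay between -65 and -51, beside a C/EBP match at -75 to -68. None of the 4 windows held the STAT letters. Of the 32851 start regions of this length in the RefSeq table, 50.8% held the NF-kB type letters, 8.30% the STAT, 10.8% the C/EBP and 13.6% the TATAAA letters. These matches describe letters in a short window and do not show binding.

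The libraries held 4703902 to 5804033 counts, and 13987 genes, among them these 4, passed the filter on low counts. Each of the 4 passed through the groups in which it was high, and S100a8 and S100a9 would not have passed without the combined libraries. All 13 colonic epithelium markers were detected in every group, and Epcam, the epithelial adhesion molecule gene, had 1373 to 1481 counts per library. The highest count of any gene was 5527 to 6744 per library, and 10 to 17 genes per library had over 1 count per exon base. Maxima this low look levelled off, as they would if duplicate reads were removed, which was not tested, so differences of abundant genes such as Epcam and Socs3 may be understated. IL-1b replicate 1 stood apart in leukocyte transcripts: its 10 pan-leukocyte genes summed to 99.1 CPM (counts divided by the library total after TMM scaling), against 17.8 to 24.5 CPM in the other IL-1b libraries and 4.15 to 16.5 CPM in the 9 libraries of the other groups. There, the leukocyte phosphatase gene Ptprc had 104 counts and the T cell genes Cd4 and Il7r had 51 and 68. Of 17 neutrophil markers, 10 had no count in any library, including the granule genes Mpo, Elane, Ctsg, Ngp and Mmp8, and Camp, Prtn3 and Csf3r each had 1 count in 1 library. The 17 summed to 112 to 132 CPM in unstimulated cultures, 141 to 174 with IL-22, 121 to 132 with IL-1b and 148 to 164 with both, nearly all of it from Ly6g (612 to 771 counts per library). The remaining 16 markers together had 5 to 38 counts per library, the most in IL-1b replicate 1, and 15 to 22 in the combined libraries. The 12 monocyte and macrophage markers summed to 27.1 to 53.1 CPM in unstimulated and 34.6 to 53.5 in IL-1b cultures, and to 67.3 to 87.9 with IL-22 and 69.4 to 97.8 with both. Most of it came from Mrc1 (82 to 267 counts per library), Ly6c2 (43 to 79 counts without IL-22 and 114 to 140 with it) and Cd68 (12 to 23 and 45 to 70). Of its other genes Csf1r had 0 to 3 counts, C1qa 0 to 8 and Ccr2 0 to 9, and Adgre1 and C1qc had none. The 11 lymphocyte markers summed to 179 to 191 CPM unstimulated, 167 to 209 in IL-1b, 134 to 158 in IL-22 and 102 to 127 in combined cultures, and the 9 stromal and endothelial markers to at most 11.03 CPM in any library.

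Lcn2 was lowest in unstimulated cultures and highest with both cytokines. It had 0, 0 and 2 counts in the unstimulated libraries, 7, 4 and 5 with IL-22, 16, 22 and 33 with IL-1b, and 234, 160 and 208 with both cytokines. The 4 groups did not overlap in CPM, with means of 0.126 ± 0.219, 1.09 ± 0.308, 4.19 ± 1.27 and 41.1 ± 8.50 CPM (SD, n = 3 here and below). S100a9, the zinc- and manganese-binding partner of S100a8, had 1, 0 and 0 counts unstimulated, 2, 2 and 0 with IL-22, 1, 9 and 3 with IL-1b, and 44, 38 and 78 with both. Its mean with both was 11.02 ± 4.999 CPM, and each combined library was above all 9 others. The share of all genes that separate in these ways is not given here, so this sets neither gene apart. The IL-22 libraries of S100a9 (0.285 ± 0.248 CPM) overlapped the unstimulated (0.0594 ± 0.103) and the IL-1b libraries (0.792 ± 0.796), while the highest unstimulated library (0.178 CPM) was just below the lowest IL-1b library (0.184 CPM), each with 1 count. A count of 3 in 1 library equals 0.499 to 0.665 CPM, depending on the library.

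S100a8 and Ltf were instead higher in every library with IL-22 than in any without it. The share of all genes with this pattern is not given here, so it does not set these genes apart. S100a8 had no count in the unstimulated libraries (which allows up to 0.183 CPM over the group), then 3, 16 and 15 in IL-22, 0, 1 and 1 in IL-1b, and 14, 24 and 31 in combined libraries. Its means were 2.33 ± 1.52 CPM under IL-22, 0.118 ± 0.103 under IL-1b and 4.73 ± 1.91 under both, and the IL-22 and combined groups overlapped. IL-22 replicate 1 was low, with 0.619 CPM against 3.54 and 2.83 in its fellow libraries. Ltf, the lactoferrin gene, had 3, 3 and 4 counts unstimulated, 43, 62 and 66 with IL-22, 1, 5 and 2 with IL-1b, and 64, 127 and 121 with both. Its means were 0.613 ± 0.126, 11.7 ± 2.52, 0.486 ± 0.401 and 21.3 ± 7.24 CPM in that order. For Ltf the unstimulated and IL-1b libraries overlapped, and so did the IL-22 and combined libraries.

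**Figure D1:**
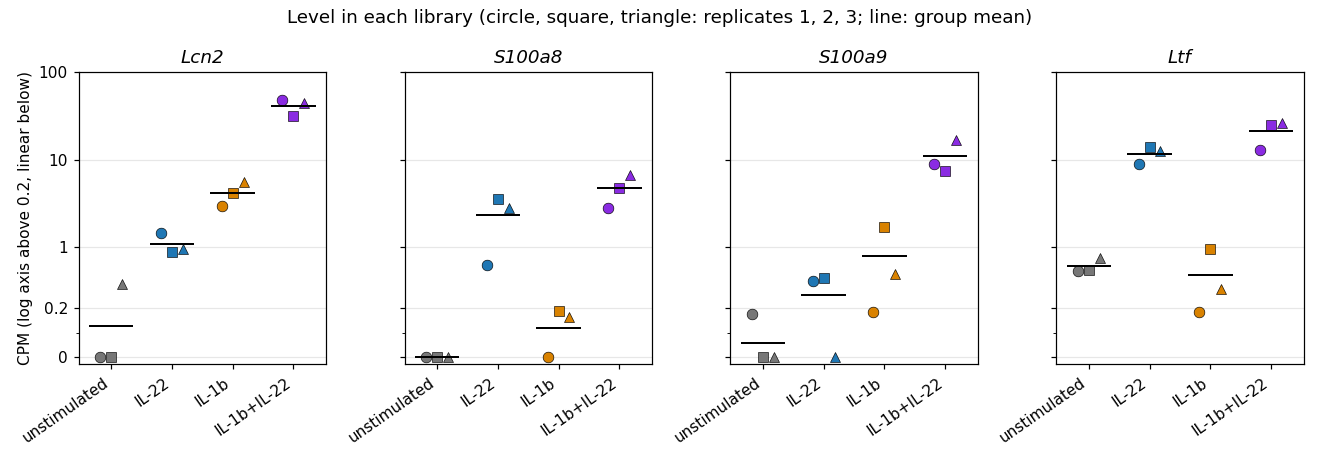
CPM of each gene (y axis, logarithmic above 0.2 CPM and linear below) in each library by group (x axis), with points for libraries and lines for group means. Lcn2 and S100a9 were highest in the 3 libraries with both cytokines (31.4 to 47.2 and 7.45 to 16.7 CPM). S100a8 and Ltf were higher in all 6 libraries with IL-22 than in any without it, though S100a8 had only 0.619 CPM in IL-22 replicate 1. The share of all genes that separate in these ways is not given.

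Adding IL-1b to IL-22 raised Lcn2 and S100a9, and left S100a8 and Ltf short of the threshold. S100a9 went from 0.285 ± 0.248 to 11.02 ± 4.999 CPM, which is 5.21 ± 0.65 on the log2 scale (SE; quasi-likelihood test of edgeR, adjusted p = 0.00574 by Benjamini-Hochberg). Lcn2 went from 1.09 ± 0.308 to 41.1 ± 8.50 CPM, which is 5.20 ± 0.32 on the log2 scale (adjusted p = 2.55e-06). By fitted log2 fold change they were 1st and 2nd of the 13987 genes, and over the alternatives S100a9 ranked 1 to 4 and Lcn2 1 to 6. S100a9 passed the filter only through the combined libraries, the high group of this comparison. Its adjusted p and rank therefore rest on the group that admitted it and are no independent support. As ratios of summed counts the rises were 39.8 for S100a9 (160 against 4 counts, exact 95% counting interval 15.3 to 148) and 37.5 for Lcn2 (602 against 16, 22.9 to 66.0). Few genes were called in this comparison: 11 in all, 0.0786% of those tested, of which 9 were higher (0.0643%) and 2 lower (0.0143%). The balance of calls depended on the setting: 81.8% were higher with TMM, 64.3% with total counts as the scaling, 32.9% of 85 with DESeq2, 35.7% of 336 with no filter beyond 1 count and 27.8% of 72 without IL-22 replicate 1. The other 7 higher genes, listed after their values were seen, were the metalloproteinase gene Mmp7, the chemokine gene Ccl20, Prl2a1, the CLCA family genes Clca3a1 and Clca3b, the complement gene C3 and the nitric oxide synthase gene Nos2, with log2 fold changes of 1.07 to 2.53. The CLCA genes are close paralogs, among which the counting could split reads. S100a9 stood at 4.61 without IL-22 replicate 3, which had no S100a9 count (adjusted p = 0.0475).

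S100a8 and Ltf did not pass this test. S100a8 stood at a log2 fold change of 1.01 ± 0.47 (adjusted p = 0.492), with a ratio of summed counts of 2.02 (69 against 34, 1.32 to 3.14). Ltf stood at 0.86 ± 0.26 (adjusted p = 0.251), with a ratio of 1.82 (312 against 171, 1.503 to 2.20). Both counting intervals lay above 1, but they leave out the spread between replicates, and the groups overlapped for both genes. Ltf was called only where genes with as little as 1 count entered the fit (adjusted p = 0.0202).

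Adding IL-22 to IL-1b raised all 4 genes. Of all genes tested 13.3% were called higher here (1860 higher and 1822 lower, or 50.5% of calls higher, against 36.8% with total counts as the scaling). Ltf rose from 0.486 ± 0.401 to 21.3 ± 7.24 CPM, by 5.41 ± 0.42 on the log2 scale (edgeR quasi-likelihood test, adjusted p = 1.02e-06). Lcn2 rose from 4.19 ± 1.27 to 41.1 ± 8.50 CPM, by 3.27 ± 0.25 (adjusted p = 1.02e-06), and S100a9 from 0.792 ± 0.796 to 11.02 ± 4.999 CPM, by 3.78 ± 0.52 (adjusted p = 0.000153). S100a8 had 2 summed counts with IL-1b and 69 with both, a ratio of 39.3 (10.5 to 331; adjusted p = 0.000659). The libraries did not overlap for any of the 4, but the share of all genes without overlap is not given here, so this sets none of them apart. By fitted log2 fold change Ltf was 6th, S100a8 8th, S100a9 16th and Lcn2 26th from the highest of the 13987 genes. S100a8 and S100a9 needed the combined libraries to pass the filter, so their adjusted p and ranks here rest on the group that admitted them. Over the alternatives the ranks were 5 to 11 for Ltf, 8 to 16 for S100a8, 14 to 71 for S100a9 and 22 to 120 for Lcn2, with 11, 16, 71 and 120 where no filter beyond 1 count was used and 11, 14, 33 and 39 without IL-1b replicate 1.

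Leaving out IL-1b replicate 1, the library with leukocyte transcripts, kept each of these calls, with log2 fold changes of 5.04 for Ltf, 4.55 for S100a8, 3.33 for S100a9 and 3.07 for Lcn2. Without IL-1b replicate 2, which had the most S100a9 and Ltf counts of its group, S100a9 stood at 4.88 and Ltf at 6.21.

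IL-22 and IL-1b, each given alone, split the genes. Of all genes tested 13.7% were higher and 12.5% lower with IL-22 than with IL-1b, so 52.3% of calls were higher, against 34.8% with total counts as the scaling. Ltf was higher with IL-22 by 4.54 ± 0.45 on the log2 scale (edgeR quasi-likelihood test, adjusted p = 1.06e-05). S100a8 was higher too, with 34 summed counts against 2, a ratio of 19.4 (4.99 to 167; adjusted p = 0.00652). S100a8 and S100a9 entered this fit only through the combined libraries and failed the filter in the 6 compared libraries alone. The adjusted p of S100a8 is therefore no independent support. Ltf passed the filter only through libraries with IL-22, the higher side here. Lcn2 was lower with IL-22, at -1.93 ± 0.42 (adjusted p = 0.00431). The libraries of these 3 genes did not overlap, and here too the share over all genes is not given. S100a9, at -1.43 ± 1.01, missed the threshold (adjusted p = 0.325), with 4 summed counts against 13, a ratio of 0.352 (0.0836 to 1.14). It moved to -0.33 without IL-1b replicate 2 and to -0.83 without IL-22 replicate 3. Without IL-1b replicate 1 the values were 4.18 for Ltf, 3.54 for S100a8, -2.13 for Lcn2 and -1.88 for S100a9, the first 3 called, and without IL-1b replicate 2 Ltf stood at 5.35.

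**Figure D2:**
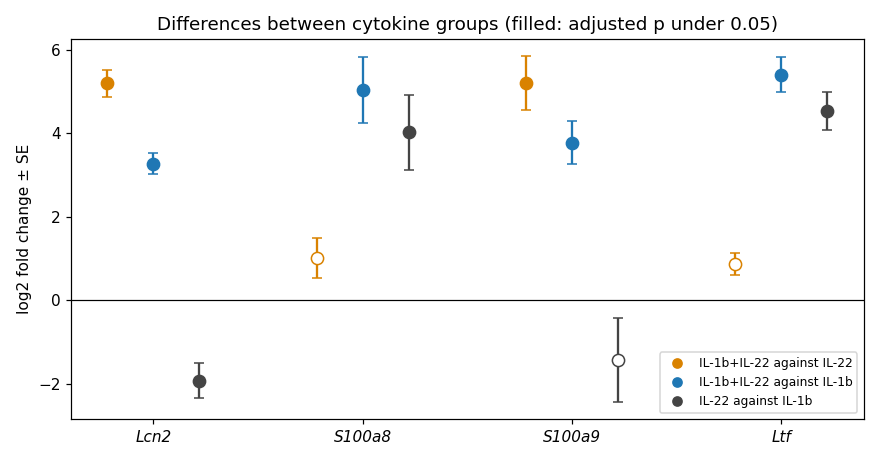
Log2 fold change with its SE (y axis) of each gene (x axis) in the 3 comparisons between cytokine groups, with filled points for an adjusted p under 0.05. Adding IL-1b to IL-22 raised Lcn2 and S100a9 (5.20 and 5.21), while S100a8 and Ltf stood at 1.01 and 0.86, and adding IL-22 to IL-1b raised all 4.

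For Lcn2 and S100a9 every combined library was above the summed levels of the single cytokines. The means of the IL-22 and IL-1b groups added to 5.28 CPM for Lcn2, against 41.1 CPM with both, a ratio of 7.78. They added to 1.08 CPM for S100a9, against 11.02 CPM, a ratio of 10.2. The lowest combined library (31.4 CPM for Lcn2, 7.45 for S100a9) was above the sum of the highest IL-22 and the highest IL-1b library (6.93 and 2.14 CPM). For S100a8 the summed means were 2.45 CPM against 4.73 CPM, a ratio of 1.93, and for Ltf 12.2 against 21.3 CPM, a ratio of 1.75. Here the lowest combined library (2.82 and 12.9 CPM) was below the sum of the highest single-cytokine libraries (3.73 and 14.7 CPM). These sums count the unstimulated level in each part and were compared without a test.

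**Figure D3:**
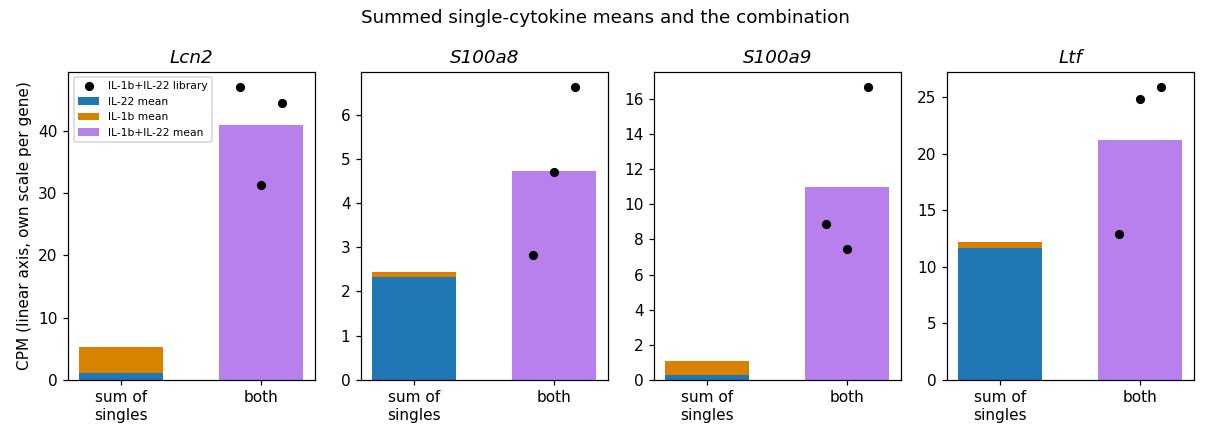
Mean CPM with IL-22 stacked with mean CPM with IL-1b, beside the mean with both cytokines and its 3 libraries (y axes linear, each gene on its own scale). The combined level was 7.78 times the stacked sum for Lcn2 and 10.2 times for S100a9, against 1.93 times for S100a8 and 1.75 times for Ltf.

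The calprotectin subunit genes differed in their cytokine pattern although their proteins act as a pair. With IL-22, S100a8 made up 3 of 5, 16 of 18 and 15 of 15 counts of the 2 genes, or 89.5% of 38 summed counts (exact Clopper-Pearson 95% interval 75.2% to 97.1%). With IL-1b it was 0 of 1, 1 of 10 and 1 of 4 counts, or 13.3% of 15 (1.66% to 40.5%). With both it was 14 of 58, 24 of 62 and 31 of 109 counts, or 30.1% of 229 (24.3% to 36.5%). S100a8 thus gave most calprotectin counts in every IL-22 library, and S100a9 most in every library with IL-1b. The mean share per library was 83.0 ± 20.6% with IL-22 and 30.4 ± 7.49% with both, with no overlap (two-sided exact permutation test, p = 0.1, n = 3 per group, the smallest p this design allows). The share with IL-1b alone, 11.7 ± 12.6%, was likewise below that with IL-22 (exact permutation test, p = 0.1) and overlapped that with both (exact permutation test, p = 0.2). Among the 3 unstimulated libraries the genes had 1 count in all, and the intervals cover counting error only.

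**Figure D4:**
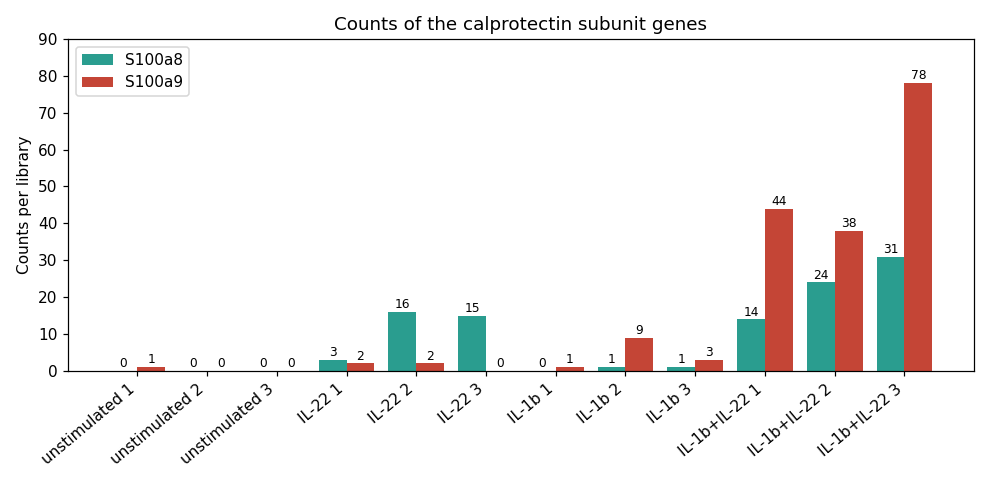
Counts (y axis, linear) of S100a8 and S100a9 in each of the 12 libraries (x axis, labelled by group and replicate). S100a8 was the taller bar in the 3 IL-22 libraries, with 3, 16 and 15 counts, and S100a9 in the 3 libraries with both, with 44, 38 and 78 counts.

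Against unstimulated cultures, the contrast on which the genes were chosen, each cytokine was set beside the other without a test. Over all genes, 22.5% were called for IL-22 (11.9% higher, 10.6% lower), 0.0715% for IL-1b and 27% for both (13.7% higher, 13.3% lower), and nothing about the 4 genes is read from these shares. With total counts as the scaling the higher share of calls was 37.7% against 52.8% for IL-22 and 39.8% against 50.8% for both. IL-1b gave a Lcn2 ratio of 34.7 (9.25 to 292) without IL-22, against 37.5 (22.9 to 66.0) in its presence. For S100a9 the IL-1b ratio was 12.7 (1.91 to 540) without IL-22 and 39.8 (15.3 to 148) with it. IL-22 gave a Lcn2 ratio of 8.94 (2.10 to 80.2) without IL-1b and 9.66 (7.54 to 12.5) with it. For Ltf the IL-22 ratio was 19.1 (10.1 to 40.6) without IL-1b and 44.4 (22.3 to 104) with it, while the IL-1b ratio was 0.782 (0.268 to 2.20) without IL-22. The intervals within each of these pairs overlapped. The Lcn2 and S100a9 ratios rest on 2 and 1 unstimulated counts. Without unstimulated replicate 3, which held both Lcn2 counts, the Lcn2 ratio was a bound of at least 15.7-fold for IL-1b and at least 4.04-fold for IL-22. Without unstimulated replicate 1 these ratios were 22.8 and 5.88, and without replicate 2 they were 23.0 and 5.94. The S100a9 ratio for IL-1b was at least 2.78 without unstimulated replicate 1, 8.44 without replicate 2 and 5.72 without IL-1b replicate 2, and the Ltf ratio for IL-1b was 0.429 without IL-1b replicate 2. S100a8, with no unstimulated count, was at least 12.7-fold higher with IL-22 and at least 25.6-fold with both, taking 3 counts over the group as the floor. These bounds were 8.33-fold and 16.8-fold without unstimulated replicate 1, and 8.41-fold and 17.0-fold without replicate 2. With IL-1b alone S100a8 had 2 counts, under that floor, and no fold is given.

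Set per kilobase of the principal GENCODE transcript, Lcn2 had the highest level with both cytokines, at 44.9 ± 9.29 CPM per kb, followed by S100a9 at 21.2 ± 9.63, S100a8 at 9.73 ± 3.94 and Ltf at 7.75 ± 2.64. Per kilobase of all annotated exon bases the order of the first genes changed, with S100a9 at 21.1 ± 9.58 and Lcn2 at 15.7 ± 3.24 CPM per kb, since the 6 Lcn2 transcripts cover 2623 bases and the principal one 915. With IL-22 alone S100a8 (4.80 ± 3.14) and Ltf (4.26 ± 0.917) were at like levels per kb of transcript and did not differ beyond their spread. With IL-1b alone Lcn2 was at 4.58 ± 1.39 and S100a9 at 1.53 ± 1.53 per kb of transcript, but at 1.60 ± 0.486 and 1.52 ± 1.53 per kb of exon bases, so their order was not settled. Relative spread in the combined group was 20.7% of the mean for Lcn2, 34.1% for Ltf, 40.5% for S100a8 and 45.4% for S100a9, where counting error alone would give 7.06%, 9.81%, 20.9% and 13.7%.

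The 4 genes were set beside leukocyte transcripts library by library. In the IL-1b group, replicate 1 had the most pan-leukocyte CPM and the fewest counts of all 4 genes, with 16 for Lcn2, 0 for S100a8, 1 for S100a9 and 1 for Ltf. In the combined group, where the 4 genes were highest, pan-leukocyte genes summed to 6.46 to 16.5 CPM, against 7.59 to 9.62 in unstimulated cultures. The monocyte and macrophage list was highest in combined replicate 3 (97.8 CPM), the library with the most S100a8, S100a9 and Ltf CPM. Lcn2 was highest in combined replicate 1 (47.2 CPM). It was lower with IL-22 alone than with IL-1b alone (1.09 ± 0.308 against 4.19 ± 1.27 CPM), and S100a9 overlapped between those groups. Like S100a8 and Ltf, the monocyte and macrophage list was higher in all 6 libraries with IL-22 than in the 6 without. The summed neutrophil list, led by Ly6g, was likewise higher in the libraries with IL-22. The part of these transcripts in the levels of the 4 genes was not tested.

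**Figure D5:**
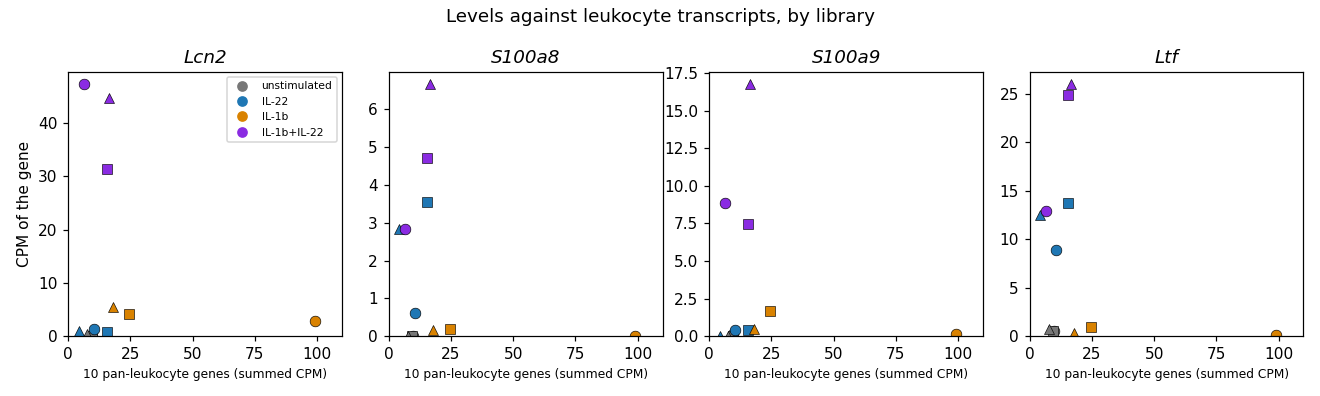
CPM of each gene (y axes, linear) against the summed CPM of 10 pan-leukocyte genes (x axis) in the 12 libraries, with colour for group and shape for replicate. IL-1b replicate 1, at 99.1 CPM of leukocyte genes, was the lowest library of the IL-1b group for all 4 genes. Its Lcn2 level (2.94 CPM) was still above every unstimulated and IL-22 library. The libraries with both cytokines lay at 6.46 to 16.5 CPM of leukocyte genes.

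When IL-1b was added to IL-22, none of the 85 tested genes of 7 related lists was called by edgeR, 14 had an unadjusted p under 0.05, and DESeq2 called 1. With 0.0786% of all genes called, a count of 0 among 85 does not set these genes apart. The lists include 15 tested genes of IL-1 and IL-22 receptor signalling and 15 tested transcription regulators of acute-phase genes, with median log2 fold changes of 0.02 and 0.05, against 0.00 over all genes. Nfkbiz stood at 67.4 ± 9.64 CPM unstimulated, 109 ± 4.03 under IL-22, 81.8 ± 1.02 under IL-1b and 122 ± 4.85 under both. Cebpd, a C/EBP factor gene of the acute phase, had its means in the same order, with 44.7 ± 6.36, 60.2 ± 4.25, 56.1 ± 0.644 and 75.2 ± 3.20 CPM. Not every step of that order passed the edgeR quasi-likelihood test. IL-22 against IL-1b passed for Nfkbiz (0.41 ± 0.08, adjusted p = 0.00246) but not for Cebpd (0.10 ± 0.09, adjusted p = 0.434). IL-1b against unstimulated passed for neither (adjusted p = 0.339 and 0.299). For IL-1b added to IL-22 the log2 fold change was 0.16 ± 0.08 for Nfkbiz and 0.32 ± 0.09 for Cebpd (same test, adjusted p = 0.521 and 0.228). Stat3 (-0.08), Socs3 (0.03), Cebpb (0.01), Il1r1 (-0.47) and Il22ra1 (-0.01) did not pass either, and the sign of the last 4 turned when 1 of the compared libraries was left out.

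Adding IL-22 to IL-1b raised 5 and lowered 1 of the 15 signalling genes (26.3% of all genes were called in either direction, 13.3% higher and 13% lower). The feedback inhibitor gene Socs3 rose by 4.28 ± 0.16, Stat3 by 0.59 ± 0.07 and the adaptor gene Traf6 by 0.57 ± 0.07. Il1r1 (-0.60 ± 0.34), Il22ra1 (-0.08 ± 0.07) and Cebpb (0.23 ± 0.09) did not pass. Of the 15 regulators 8 rose and none fell, including Arid5a, whose product stabilises inflammatory mRNAs, by 1.47 ± 0.22, the IkB family gene Bcl3 by 0.84 ± 0.07, Nfkbiz by 0.57 ± 0.08 and Cebpd by 0.42 ± 0.09 (edgeR quasi-likelihood test, adjusted p from 2.70e-06 to 0.0033 for these 4). With IL-1b against unstimulated cultures, where 0.0715% of genes were called, none of either list passed (4 of the regulators had an unadjusted p under 0.05 and DESeq2 called 1, and no signalling gene did either).

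Of 16 tested genes for other secreted antimicrobial proteins, 10 rose and none fell when IL-22 was added to IL-1b (median 0.31), where 13.3% of all genes were called higher and 13% lower. Reg3b and Reg3g, which encode antibacterial lectins, had 767 against 7 and 490 against 4 summed counts (ratios 125, 60.3 to 312, and 140, 54.2 to 514). Pla2g2a, a phospholipase gene disrupted in C57BL/6 mice, had 112 against 4 (ratio 31.9, 12.1 to 119). For IL-1b added to IL-22 their median log2 fold change was 0.01, and 4 had an unadjusted p under 0.05. IL-1b alone, with 0.0715% of all genes called, raised 1 of them over unstimulated cultures, the lipopolysaccharide-binding protein gene Lbp, by 2.62 ± 0.29 (edgeR quasi-likelihood test, adjusted p = 0.00143).

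Of 15 other S100 family and S100-named genes 12 were tested, and 2 rose and 1 fell for IL-22 added to IL-1b, or 25% called, near the 26.3% of all genes. S100a11 rose by 0.28 ± 0.07 and S100a10, the annexin A2 partner, by 0.24 ± 0.07, and S100pbp, which encodes a binding protein of an S100 protein and not an S100 protein, fell by 0.66 ± 0.13. The S100a10 call was lost with total counts as the scaling and without IL-1b replicate 3 or combined replicate 1 or 3, and that of S100a11 without IL-1b replicate 3 or combined replicate 3. Of 14 lipocalin and transferrin family genes 3 were tested. The complement lipocalin gene C8g fell by 0.77 ± 0.24 for IL-22 added to IL-1b, a call that DESeq2 did not make (adjusted p = 0.0835) and that was lost without any 1 of the IL-1b libraries or combined replicate 1.

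Of 18 tested genes for iron, zinc and manganese, 1 rose and 4 fell for IL-22 added to IL-1b, or 27.8% called, near the 26.3% of all genes. The iron and manganese importer gene Slc11a2 fell by 0.84 ± 0.15 and the manganese exporter gene Slc30a10 by 0.35 ± 0.11, whereas the haem oxygenase gene Hmox1 rose by 0.63 ± 0.11. The Slc30a10 call was lost without IL-1b replicate 2 or 3 or combined replicate 2 or 3. Of 6 tested receptors and partners of the 4 products, Tlr4, a receptor of S100A8 and S100A9, rose by 0.87 ± 0.09 and its co-receptor gene Cd14 by 0.38 ± 0.08 when IL-22 was added to IL-1b.

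Genes with a similar profile over the 12 libraries were sought for each of the 4. Similarity was the root-mean-square difference between centred log2 CPM values (prior count 2), over 12199 named genes with a mean of 1 CPM or more. Nearest to Lcn2 were S100a9 (0.97), Mmp7 (1.24), the chemokine gene Cxcl2, Prl2a1 and the chemokine receptor gene Ccr4 (each 1.48), against a median of 2.40 over all genes. Nearest to S100a9 were Mmp7 (0.90), Lcn2 (0.97), Ccr4 (1.02), Clca3a2 (1.08) and Clca3a1 (1.12), against a median of 1.89. Mmp7 had 0.667 ± 0.363 CPM unstimulated, 1.78 ± 0.785 under IL-22, 2.50 ± 1.45 under IL-1b and 10.4 ± 3.66 under both.

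Nearest to S100a8 were Myot (0.43), Myl1 (0.49), the lysolipid transporter gene Mfsd2a (0.59), Rasgef1a (0.61) and Adamts4 (0.65), against a median of 1.62. Nearest to Ltf were Pla2g2a (0.50), Tifa (0.52), Socs3 (0.57), Trim10 (0.58) and Myl1 (0.62), against a median of 2.12. Socs3 had 13.4 ± 5.84 CPM unstimulated, 209 ± 10.7 under IL-22, 10.96 ± 0.547 under IL-1b and 214 ± 8.003 under both. Between the genes themselves the difference was 0.74 for S100a8 and Ltf and 0.97 for Lcn2 and S100a9, and 1.39 to 2.13 for the 4 other pairings.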

How the data were processed

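The authors deposited whole-number counts per gene symbol for 12 libraries, with no normalization. Per the submitters' processing notes the genome was mm10; which aligner, counter, strand setting and annotation served is not given in the sources used here. In R 4.3.3, edgeR 4.0.16 filtered low counts with filterByExpr (leaving 13987 of 35869 genes) and scaled by TMM, and counts were fitted with 1 mean per group over all 12 libraries by the edgeR quasi-likelihood method. P-values were adjusted by Benjamini-Hochberg over all genes tested and called under 0.05. Each SE was taken from the fold change and its F value. Ratios of summed counts have exact conditional intervals, which cover counting error only. DESeq2 1.42.0 served as an alternative test. Where no list member was called, no list gene is named outside a fixed set of cytokine response genes. Called list genes named are the 3 with the largest change. The 4 genes, the lists and the tests were chosen with earlier results of these data known. The fit was also run on simulated counts of this design as a check of the code. Those counts did not copy the near-zero groups of the 4 genes, so the run does not bear on their tests. Exon lengths and positions are from GENCODE M21 (26762 symbols matched directly, 514 by a synonym, 8593 not matched), and start regions from RefSeq. The labels name no batch.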

Additional observations from a re-analysis of the deposited data

How the results depend on the processing

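Calls of the 4 genes between cytokine groups kept their direction and their side of the threshold under every alternative in which they could be fitted, except Ltf for IL-1b added to IL-22, which passed with no filter beyond 1 count (log2 fold change 0.86, adjusted p = 0.0202). Across alternatives Lcn2 lay between 5.08 and 5.44 and S100a9 between 4.61 and 5.63 in that comparison (highest adjusted p = 0.000152 and 0.0475). S100a8 and S100a9 were not tested at 1 CPM in 6 libraries, nor between IL-22 and IL-1b in the 6 libraries alone. The number of genes called for IL-1b added to IL-22 was 11, but 85 with DESeq2 (28 higher, 57 lower), 336 with no filter (120 higher, 216 lower), 6 with the 6 libraries alone and 7 with the replicate block. Leaving out 1 library gave 3 to 72 (18 without unstimulated replicate 3, 72 (20 higher, 52 lower), 5 and 4 without IL-22 replicates 1, 2 and 3, 6 without IL-1b replicate 2, and 28, 4 and 3 without combined replicates 1, 2 and 3). For IL-1b against unstimulated, 10 calls became 32 with DESeq2, 212 with no filter and 9 to 28 without 1 library (28 without unstimulated replicate 3). The counts without 1 library were 2345 to 3795 for IL-22 against IL-1b (lowest without IL-1b replicate 3) and 1992 to 3350 for IL-22 against unstimulated (lowest without unstimulated replicate 2). The cause of these shifts was not tested. The S100a8 bounds without 1 library were 8.33 to 17.2-fold with IL-22 and 16.8 to 30.8-fold with both. For IL-1b added to IL-22, the sign turned for Cebpb (-0.0475 to 0.0791), Socs3 (-0.0104 to 0.0634), Il1r1 (-0.73 to 0.0977) and Il22ra1 (-0.0804 to 0.0345) without 1 library, and for Il22ra1 with total counts (0.00868). Replicate numbers do not pair the libraries: deviations of same-numbered libraries had correlations of -0.188 to 0.179, and 2 libraries correlated best with their own number. The replicate block changed no call of the 4 genes. If reads at 1 position were counted once, a correction on the principal transcript would take the highest Lcn2 count from 234 to 270. Counts of 0 to 5 limit what can be read for S100a9 with IL-22, S100a8 and Ltf with IL-1b and all 4 genes unstimulated. The same holds for S100a9 in IL-1b replicates 1 and 3, with 1 and 3 counts.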
